A study of Mus musculus with 3 samples.

Results

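The interferon response and class I presentation genes were studied in wild-type (WT) mouse embryonic fibroblasts (MEFs), primary connective tissue cells grown out of embryos at E12.5. The set of 41 genes holds interferon-beta, 4 interferon receptor chains, 5 transcription factors, 2 RNA sensors, 23 antiviral effectors and 6 genes of antigen presentation by class I molecules. Its members were listed by name from their known roles, and all 41 were found among the 21782 genes with a count per gene. The data are 3 RNA-seq libraries of polyA-selected RNA, 1 from each of 3 clones of asynchronous MEFs with no treatment named, so there is 1 condition and no groups were compared. A clone and its library cannot be told apart, and every test between clones compares libraries, not conditions.

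Cells that sense viral RNA through DDX58 (RIG-I) or IFIH1 (MDA5) make type I interferon. Interferon-beta binds the receptor chains IFNAR1 and IFNAR2, and a factor that holds STAT2 and IRF9 then enters the nucleus and binds the interferon-stimulated response element (ISRE) in the promoters of antiviral genes. Class I molecules consist of a heavy chain, encoded by H2-K1 or H2-D1 in the mouse, and beta-2-microglobulin (B2m), and show peptides that TAP1 and TAP2 have pumped into the endoplasmic reticulum. Many of these genes are known to have some expression without interferon. No interferon treatment is named for these cultures, and interferon protein was not measured in the data used here.

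Libraries held between 22594316 and 25261357 counts, so that 1 count was worth about 0.04 CPM, the count scaled to a library of 1000000 counts. Expressed here means that no clone was below 1 CPM. The label was checked against marker genes. All 8 fibroblast markers were expressed, and the 10 markers of lymphocytes, granulocytes and mast cells had at most 3 counts in every clone. All 16 macrophage markers were present in every clone and were highest in clone 2, with a summed level of 433, 2070 and 362 CPM in clones 1, 2 and 3. Their lowest counts were those of Aif1, at 6, 42 and 3 in clones 1, 2 and 3, and none was at 0. Clone 2 therefore stood apart in the macrophage markers. The count of calls without clone 2 is also given, with single genes whose call then changed. Of 5 markers each for endothelium, epithelium, muscle and neural cells, 1, 1, 2 and 2 were expressed. Some of these were also unequal between clones. Emcn of endothelium had 307, 4 and 242 counts in clones 1, 2 and 3, and Des of muscle had 71.6, 31.1 and 96.5 CPM. In RNA from whole cultures, fewer cells of a type and less RNA per cell cannot be told apart.

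The promoters of 8 members show the letters that the ISRE is built on, in genes with levels from among the highest of the set to near the floor. Each stretch is the 160 bases that end just before the transcription start in RefSeq (GRCm38.p6), written 5′ to 3′ in the direction of the gene. Capitals mark GAAA, any 2 bases and GAAA again, or the same letters read on the other strand.
B2m, chr2:122147527-122147686, plus strand: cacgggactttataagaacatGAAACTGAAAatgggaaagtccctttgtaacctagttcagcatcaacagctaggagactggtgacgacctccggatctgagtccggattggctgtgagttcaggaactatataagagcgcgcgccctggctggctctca
Ifitm2, chr7:140955962-140956121, minus strand: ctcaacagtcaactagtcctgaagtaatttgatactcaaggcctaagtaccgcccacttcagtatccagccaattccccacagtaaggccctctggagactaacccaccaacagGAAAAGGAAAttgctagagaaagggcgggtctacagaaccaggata
Bst2, chr8:71537473-71537632, minus strand: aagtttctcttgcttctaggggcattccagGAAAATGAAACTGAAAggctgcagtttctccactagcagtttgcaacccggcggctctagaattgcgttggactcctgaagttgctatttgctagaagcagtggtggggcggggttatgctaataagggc
Isg15, chr4:156200819-156200978, minus strand: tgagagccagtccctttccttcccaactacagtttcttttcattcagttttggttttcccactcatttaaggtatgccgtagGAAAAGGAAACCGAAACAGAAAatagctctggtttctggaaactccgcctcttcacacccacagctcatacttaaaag
Ifit1, chr19:34640729-34640888, plus strand: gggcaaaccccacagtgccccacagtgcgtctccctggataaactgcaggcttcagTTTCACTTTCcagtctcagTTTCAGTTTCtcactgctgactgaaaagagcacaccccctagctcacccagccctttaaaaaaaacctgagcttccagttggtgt
Ifit3, chr19:34583369-34583528, plus strand: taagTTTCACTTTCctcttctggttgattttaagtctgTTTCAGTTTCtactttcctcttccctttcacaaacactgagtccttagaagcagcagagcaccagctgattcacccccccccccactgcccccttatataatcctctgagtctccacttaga
Oas1a, chr5:120907526-120907685, minus strand: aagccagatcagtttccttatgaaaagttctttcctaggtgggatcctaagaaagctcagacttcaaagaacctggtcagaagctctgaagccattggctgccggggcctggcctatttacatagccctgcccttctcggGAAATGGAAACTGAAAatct
Rsad2, chr12:26456453-26456612, minus strand: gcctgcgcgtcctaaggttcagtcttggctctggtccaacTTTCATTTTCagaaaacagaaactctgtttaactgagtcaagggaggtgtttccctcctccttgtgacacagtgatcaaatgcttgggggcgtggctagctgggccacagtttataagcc

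Matches were counted in windows from 250 bases before to 50 after each start, on both strands. Promoters of 36 of the 41 members were found in the RefSeq set, without those of Mx1, Mx2, Oas2, Usp18 and Tap2. The ISRE letters were in 15 of these 36 genes (41.7%), against 3.99% of 27025 genes. They were found in 11 of 19 antiviral effectors, in both RNA sensors, in 1 of 5 transcription factors (Stat2) and in 1 of 5 class I genes (B2m), but in none of the 4 receptor chains. The letters TTCNNNGAA, the core of the gamma-activated site, were in 10 of the 36 genes (27.8%), against 9.55% of all genes. Both motifs were in 1 promoter of Bst2, Eif2ak2, Ifitm3 and Oas1a, and in Bst2 and Ifitm3 the 2 matches overlapped. A match is a description of letters and not of a bound site.

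Levels varied widely with or without these letters. Members with the ISRE letters had a median of 4.14 CPM and ranged from 0.171 CPM (Rsad2) to 444 CPM (B2m), and members without them had a median of 11.1 CPM and ranged from 0.0132 CPM (Ifnb1) to 106 CPM (Ifngr2). Matches were in 9 of 24 expressed members (37.5%) and in 6 of 12 members that were not expressed . Isg15, whose promoter held 3 overlapping matches, had a mean of 0.551 CPM, and Ifitm2, with a single match that begins 46 bases before the start, had a mean of 125 CPM. These shares are descriptions of a set that was chosen for its response to interferon.

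Of the 41 members, 25 (61.0%) were expressed in every clone, beside 52.2% of all genes. The set is split by role. All 4 receptor chains, both RNA sensors and all 6 class I genes were expressed, as were 4 of 5 transcription factors, whereas only 9 of 23 antiviral effectors (39.1%) were, and interferon-beta was not. The median mean level was 8.77 CPM over the members and 2.22 CPM over all genes. Among expressed genes alone, the quartiles of the members were 11.1 and 72.6 CPM and those of all genes 9.47 and 62.6 CPM. Members took 0.14%, 0.146% and 0.132% of all counts in clones 1, 2 and 3, and B2m alone supplied between 30.7% and 32.7% of the members' counts.

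**Figure D1:**
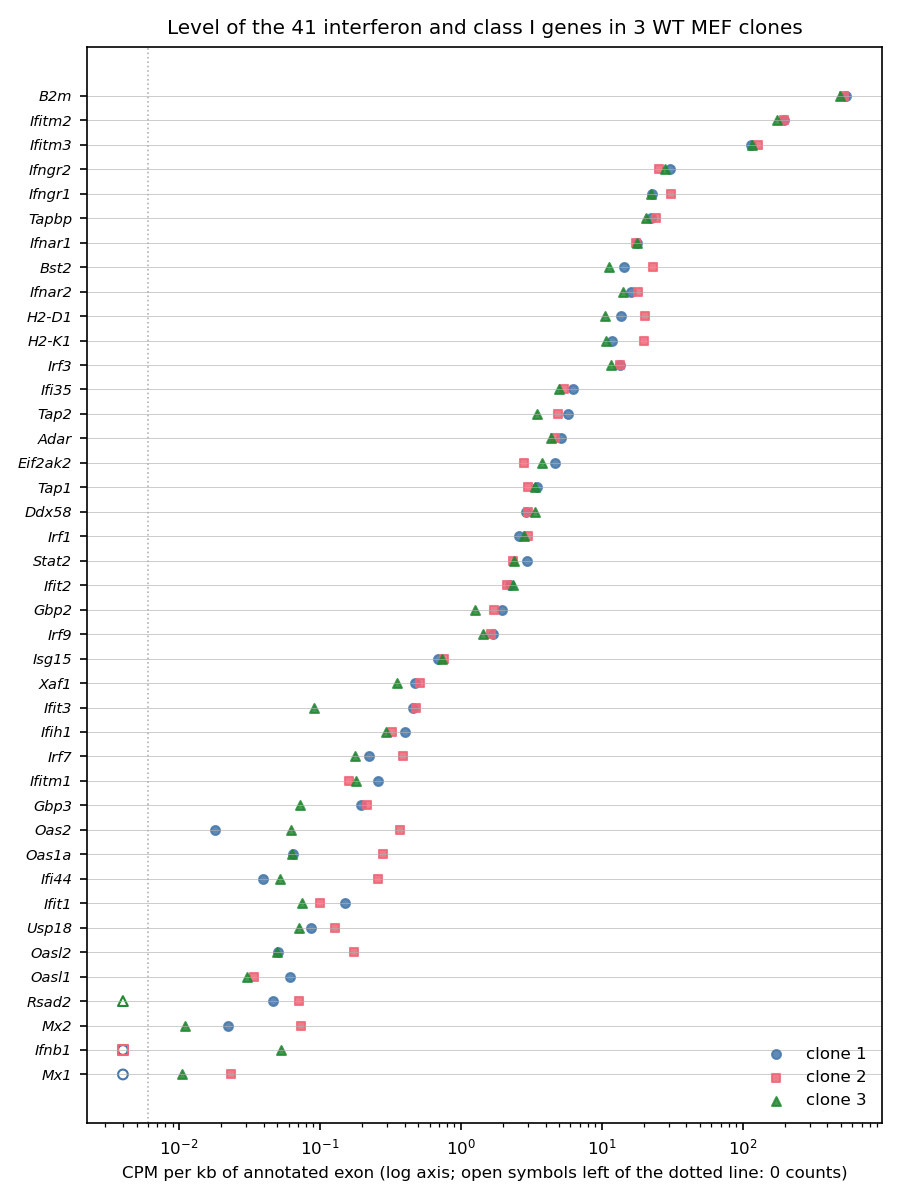
Level of each of the 41 genes in the 3 WT clones, in CPM per kb of annotated exon on a log axis, ordered by the mean and with 1 symbol per clone (open symbols mark 0 counts). B2m (517 on average), Ifitm2 (190) and Ifitm3 (120) stand apart at the top with separate ranges, and the members below Isg15 (0.729) form a tail in which the ranges of neighbours overlap.

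Levels of different genes were compared per kb of annotated exon. B2m was highest with 517 ± 26.7 CPM per kb (SD, n = 3), followed by Ifitm2 with 190 ± 12 and Ifitm3 with 120 ± 8.07. The ranges of the clones of these 3 genes did not overlap with each other or with that of Ifngr2, the next gene, at 28.1 CPM per kb. Of the 40 pairs of neighbours in this order, 9 had separate ranges and 31 overlapped. One separate step lay between Irf3 (12.8 CPM per kb), which ends a group of receptors, class I genes and Bst2, and Ifi35 (5.55 CPM per kb). Another lay between Irf9 (1.59 CPM per kb) and Isg15 (0.729 CPM per kb), and a further one between Isg15 and Xaf1 (0.446 CPM per kb). Below Xaf1, no pair of neighbours had separate ranges. With transcript length in place of exon length, B2m, Ifitm2 and Ifitm3 kept their levels, but Ifngr1 (34.4 CPM per kb) came before Ifngr2 (28.6 CPM per kb). Other places in the order also changed. Irf3 (21.8 CPM per kb) then came before Bst2 (18.6), H2-D1 (18.2) and Ifnar2 (17.6). Xaf1 (0.805 CPM per kb) came before Isg15 (0.729), so the step from Isg15 down to Xaf1 holds for exon length only.

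Interferon-beta (Ifnb1, chromosome 4, 88522025 to 88522774) had 0, 0 and 1 counts in clones 1, 2 and 3. A library with 0 counts may still hold up to 3, or between 0.119 and 0.133 CPM at these depths, for counting error only. The other 10 interferon genes looked up, 5 of them of the alpha class with Ifnk, Ifne, Ifng, Ifnl2 and Ifnl3, also had at most 3 counts in every clone. Of these, only Ifne had any count, with 3 in clone 1. None of the interferon genes looked up was thus detectable above the floor.

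Receptor chains were transcribed in every clone. Ifnar1, the type I receptor chain that binds TYK2, had 107, 103 and 105 CPM in clones 1, 2 and 3 (105 ± 1.72 CPM). Ifnar2, its partner, had 53.5, 59.9 and 47.4 CPM. Of the type II receptor, which binds interferon-gamma, the ligand-binding chain Ifngr1 had 65.2, 88.7 and 63.9 CPM, and the signalling chain Ifngr2 had 115, 96.9 and 106 CPM. Ifnar1 was nearly level, whereas Ifnar2 and Ifngr1 were highest in clone 2 and Ifngr2 was lowest there. A chi-square test of the 3 counts of each gene, with Benjamini-Hochberg adjustment over 12218 genes, found no difference for Ifnar1 (adjusted p = 0.577). For Ifngr1, the same chi-square test gave an adjusted p of 6.04e-27 with a 1.39-fold range, and the difference between the remaining clones had an adjusted p of 0.694 without clone 2. Ifnar2 and Ifngr2 also differed by the chi-square test (adjusted p = 9.51e-08 and 7.6e-08), with 1.26-fold and 1.18-fold ranges.

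Balance between partner chains varied with the pair. Ifnar1 made up 66.3% ± 2.84 (SD, n = 3) of the counts of the type I pair, and 52.5% ± 3.16 per kb of annotated exon. Of the type II pair, Ifngr1 made up 36.2% (95% Wilson interval 34.8 to 37.7) in clone 1 and 37.6% (36.2 to 39.1) in clone 3. In clone 2 it made up 47.8% (46.3 to 49.3). The share in clone 2 lay outside the intervals of the other clones. Ifnar1, Ifnar2 and Ifngr2 lie close together on chromosome 16, between 91372783 and 91565623 (GRCm38), and Ifngr1 lies on chromosome 10. Of these 3 genes, Ifngr2 had the highest level per kb of annotated exon, with 28.1 ± 2.37 CPM. Ifnar1 had 17.7 ± 0.289 and Ifnar2 16.1 ± 1.88. The size of this gap depended on the length used. With transcript length, Ifngr2 had 28.6 ± 2.41 CPM per kb, close to Ifnar1 with 26.9 ± 0.439, and Ifnar2 had 17.6 ± 2.05.

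Among transcription factors, Irf3 and Irf7 differed most in level. Irf3, which is made constitutively and is activated by phosphorylation once RNA is sensed, had 46.2, 46.3 and 40.0 CPM. Irf7, which interferon itself induces and which then amplifies interferon transcription, had 21, 33 and 17 counts, or 0.845, 1.46 and 0.673 CPM. Irf3 supplied 97.8% ± 0.775 of the counts of the pair, and 98% per kb. Irf7 was highest in clone 2, with a 2.17-fold range (chi-square test, adjusted p = 0.0272), and the chi-square test no longer called it without clone 2 (adjusted p = 0.608) or without clone 3 (adjusted p = 0.0819).

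Stat2 and Irf9, partners in the factor that binds the ISRE, were expressed at 15.1 ± 1.98 and 8.55 ± 0.723 CPM. Stat2 had 17.4, 13.9 and 14.1 CPM and was highest in clone 1 (chi-square test, adjusted p = 0.00386). Without clone 1 its chi-square adjusted p was 0.932. Irf9 had 9.06, 8.87 and 7.72 CPM, and Irf1, an early target of interferon-gamma, had 10.3, 11.9 and 11.1 CPM. Neither passed the chi-square test (adjusted p = 0.277 and 0.325). Irf3 passed (adjusted p = 0.00135 by the chi-square test), with clone 3 lowest, though its range was 1.16-fold, and without clone 3 the chi-square test called no difference (adjusted p = 0.973).

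RNA sensors were both present. Ddx58 had 20.4, 21.2 and 23.6 CPM (21.7 ± 1.66), and Ifih1, which recognises longer double-stranded RNA, had 3.26, 2.66 and 2.42 CPM (2.78 ± 0.435). Per kb, Ddx58 at 3.08 CPM stood above Ifih1 at 0.34 CPM in every clone. Neither differed between clones by the chi-square test (adjusted p = 0.0651 and 0.239). The chi-square test did call Ddx58 with total counts in place of TMM sizes (adjusted p = 0.0145) and when clone 2 was left out (adjusted p = 0.0351).

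Antiviral effectors spanned the widest range of levels. Ifitm2 and Ifitm3, membrane proteins that hinder viruses from fusing with endosomes, had 125 ± 7.83 and 81.2 ± 5.47 CPM. Ifitm2 had 129, 130 and 116 CPM in clones 1, 2 and 3, and Ifitm3 had 77.0, 87.4 and 79.1 CPM. Both differed by the chi-square test (adjusted p = 1.6e-05 and 0.000438), but Ifitm2 not without clone 3 (adjusted p = 0.832) and Ifitm3 not without clone 2 (adjusted p = 0.488). Ifitm1, of the same family, had 7, 4 and 5 counts. The 3 genes lie between 140954837 and 141010770 on chromosome 7, so that a gene with a mean of 0.2 CPM per kb sits between a gene at 190 and another at 120 CPM per kb. Of the 86-base stretches of Ifitm2 (the length of a read), 50.9% also occur, within 2 mismatches, in other annotated transcripts, and an overlapping gene covers 40.9% of its exons, so that its level is less certain than that of Ifitm3.

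Effectors that act on RNA were also expressed. Adar, which edits adenosine in double-stranded RNA, had 41.5, 37.6 and 35.3 CPM, and 18.2% of its 86-base stretches are shared with Chrnb2, which overlaps it on the other strand. Eif2ak2 (PKR), a kinase that stops translation on binding double-stranded RNA, had 24.0, 14.4 and 19.3 CPM. Clone 2 was lowest and clone 1 highest, and the range was 1.67-fold (chi-square test, adjusted p = 2.4e-12). Adar differed by 1.18-fold (chi-square test, adjusted p = 0.003), but the chi-square test no longer called it without clone 1 (adjusted p = 0.333) or without clone 3 (adjusted p = 0.0589).

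Bst2 (tetherin) holds budding virions at the cell surface. It had 13.1, 20.8 and 10.2 CPM in clones 1, 2 and 3 (14.7 ± 5.47). Clone 2 was highest and clone 3 lowest, with a 2.04-fold range whose 95% counting interval ran from 1.75 to 2.38 (chi-square test, adjusted p = 7.46e-21). Bst2 is also a marker of plasmacytoid dendritic cells, whose other marker, Siglech, had 0, 0 and 2 counts.

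Of the remaining expressed effectors, Ifi35 had 10.9, 9.36 and 8.55 CPM, Ifit2 had 8.81, 8.34 and 9.15 CPM, Gbp2 had 4.91, 4.35 and 3.17 CPM, and Xaf1 had 2.21, 2.39 and 1.66 CPM. Ifit2, which binds viral RNA, was nearly level between clones (chi-square test, adjusted p = 0.69). Gbp2, a GTPase that interferon-gamma induces, was lowest in clone 3 (chi-square test, adjusted p = 0.0151), and it was not called without clone 3 (adjusted p = 0.466) or without clone 1 (adjusted p = 0.0941). The call of Ifi35 was marginal, with a chi-square adjusted p of 0.0446 that became 0.101 with total counts, 0.526 without clone 1 and 0.164 without clone 3. Xaf1 did not pass the chi-square test (adjusted p = 0.237).

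The 14 effectors that were not expressed include the genes by which an interferon response is usually recognised. Isg15, a ubiquitin-like modifier, had 13, 13 and 14 counts, and Usp18, the protease that removes it, had 6, 8 and 5. Ifit1 had 10, 6 and 5 counts, Rsad2 (viperin) had 5, 7 and 0, Mx1 had 0, 2 and 1, and Mx2 had 2, 6 and 1. Mx2 is annotated as a polymorphic pseudogene. Mx1 did not rise above the floor of 3 counts in any clone, and Isg15 alone of these 6 genes reached 10 counts in each clone. Within the Ifit cluster on chromosome 19 (34550694 to 34650009), Ifit2 had 2.23 ± 0.103 CPM per kb, above Ifit3 with 0.345 ± 0.22 and Ifit1 with 0.109 ± 0.0392. The range of Ifit2 did not overlap with either of these, whereas those of Ifit3 and Ifit1 overlapped.

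Some of the low effectors were unequal between clones. Oas2, which makes the 2′-5′ oligoadenylates that activate RNase L, had 2, 37 and 7 counts in clones 1, 2 and 3, and Ifi44, of unsettled function, had 6, 36 and 8. Oasl2 had 8, 25 and 8 counts, Oas1a had 3, 12 and 3, and Ifit3 had 20, 19 and 4. Clone 2 was highest for the first 4, and for Ifit3 clones 1 and 2 were both above clone 3. An exact multinomial test of the counts, adjusted over 16294 genes with any count, gave an adjusted p of 3.71e-11 for Oas2, with a ratio of 20.4 between clones 2 and 1 (95% counting interval 5.26 to 175). For Ifi44 the exact adjusted p was 9.25e-08 (ratio 6.61, interval 2.76 to 19.2), for Oasl2 0.0013 (3.5, 1.53 to 8.98), for Oas1a 0.019 (4.48, 1.21 to 24.7) and for Ifit3 0.0018 (5.32, 1.77 to 21.5). Rsad2 had 7 counts in clone 2 and 0 in clone 3, a ratio whose 95% counting interval begins at 1.61 (exact test, adjusted p = 0.0227), but the chi-square test did not call it (adjusted p = 0.0549). Oas1a shares 73.9% of its stretches with Oas1g and Ifit3 shares 70.2% with Ifit3b, so that reads of their close relatives cannot be told apart from their own.

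**Figure D2:**
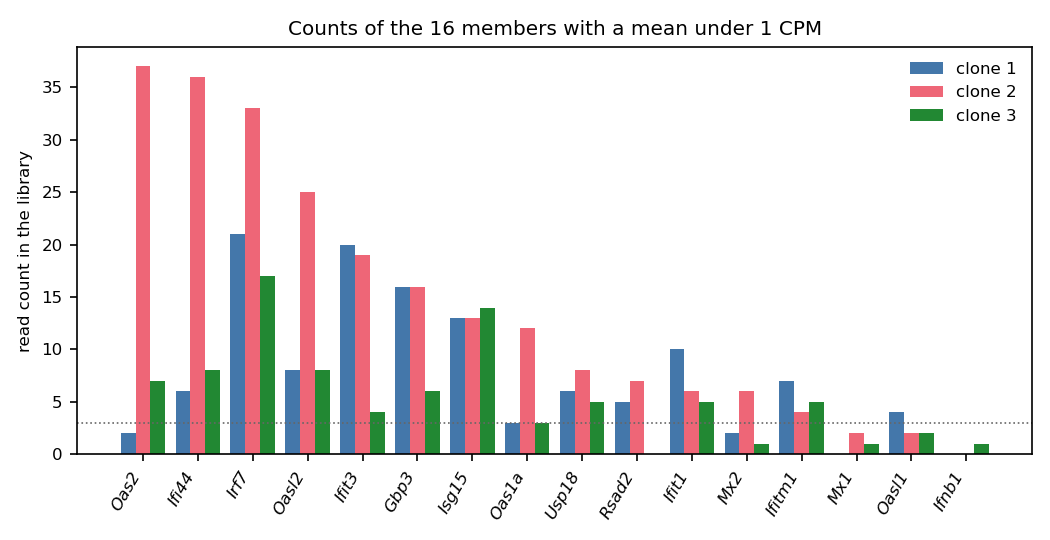
Read counts of the low members in each of the 3 WT libraries, with a dotted line at 3 counts, the floor used for a library with 0 counts. Oas2 (37 counts), Ifi44 (36) and Oasl2 (25) are highest in clone 2, Isg15 is level at 13, 13 and 14, and Ifit3 is lowest in clone 3 with 4.

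The exact test called no difference for the other low effectors. Of those not yet given, Gbp3 had 16, 16 and 6 counts, and Oasl1 had 4, 2 and 2. Of the 16 members that were not expressed, 12 had their highest CPM in clone 2, and 36.5% of the 4927 genes with a count that were not expressed did so. This count was chosen after the values were seen and was not tested.

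Class I genes were expressed in every clone. B2m had 465, 449 and 420 CPM in clones 1, 2 and 3 (444 ± 23). H2-K1 had 35.1, 58.8 and 31.4 CPM, and H2-D1 had 35.3, 52.6 and 27 CPM. The heavy chains were both highest in clone 2 and lowest in clone 3, whereas B2m was highest in clone 1. H2-K1 had a 1.87-fold range (chi-square test, adjusted p = 5.13e-54) and H2-D1 a 1.95-fold range (chi-square test, adjusted p = 1.15e-45), while that of B2m was 1.11-fold (chi-square test, adjusted p = 6.95e-13). Without clone 2, H2-K1 was not called by the chi-square test (adjusted p = 0.0576), whereas H2-D1 still was.

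The heavy chains were close to equal in counts in each clone. H2-K1 made up 49.8% of their summed counts in clone 1 (95% Wilson interval 47.5 to 52.2). In clone 2 it was 52.8% (50.8 to 54.7), and 53.7% (51.2 to 56.3) in clone 3. The mean was 52.1% ± 2.03, and 48.9% ± 2.03 per kb of annotated exon. With transcript length, H2-K1 had 25.8 ± 9.19 and H2-D1 18.2 ± 6.22 CPM per kb, so the balance per kb depends on the length used. B2m, at 517 CPM per kb, lay far above H2-K1 at 14.2 ± 5.06 and H2-D1 at 14.9 ± 5.07 CPM per kb. Of the stretches of H2-K1 15.4%, and of H2-D1 15.0%, occur in other transcripts of this polymorphic family, which lies on chromosome 17.

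Peptide transport and loading genes lie in the same region of chromosome 17. Tapbp (tapasin), which bridges TAP and the heavy chain, had 81.7, 88.2 and 74.9 CPM. Tap1 had 19.0, 16.5 and 18.3 CPM and Tap2 had 21.7, 18.5 and 13.1 CPM. Tap1 did not differ between clones by the chi-square test (adjusted p = 0.151), whereas Tap2 was highest in clone 1 and lowest in clone 3, with a 1.66-fold range (chi-square test, adjusted p = 1.42e-11), and Tapbp had a 1.18-fold range (chi-square test, adjusted p = 7.79e-06). Of the counts of the TAP pair, Tap1 made up 46.7% in clone 1 (95% Wilson interval 43.7 to 49.8) and 47.1% (43.7 to 50.6) in clone 2. In clone 3 it made up 58.3% (54.8 to 61.6), which lay outside the other intervals. Per kb of annotated exon, the mean share of Tap1 was 41.6% ± 6.44. The direction depends on the length used. With transcript length, Tap1 had 6.08 ± 0.442 and Tap2 5.16 ± 1.26 CPM per kb.

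Across the set, 27 members had no clone below 10 counts and were tested, and 18 of them (66.7%) differed by the chi-square test, beside 62.5% of the 12218 genes tested. The median range between the highest and the lowest clone was 1.18-fold for the members and 1.24-fold for all tested genes. Of the 18, 10 were highest in clone 2 (37.0% of those tested, beside 23.5% of all genes), 8 in clone 1 (29.6%, beside 23.8%) and 0 in clone 3 (beside 15.3%). The lowest clone was clone 3 for 14 of them (51.9%, beside 14.2% of all genes), clone 2 for 3 (11.1%, beside 21.3%) and clone 1 for 1 (3.7%, beside 27.1%). The 14 cover receptors, factors, effectors and class I genes, among them Ifnar2, Irf3, Bst2, Gbp2, B2m, H2-K1 and Tap2. Without clone 2, 15 of 27 differed, beside 45.3% of the genes then tested. Of the 18, 14 were still called, Bst2 and H2-D1 among them, whereas Ifngr1, Irf7, Ifitm3 and H2-K1 were not.

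**Figure D3:**
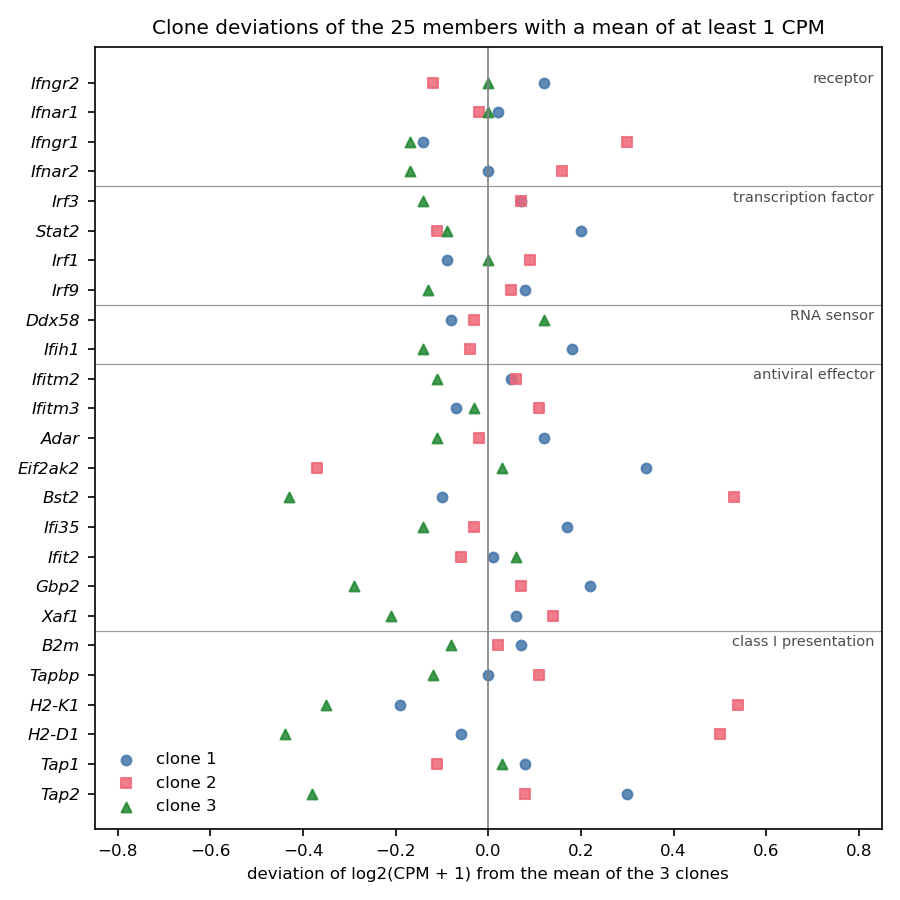
Each clone's log2(CPM + 1) minus the average over clones, for the 25 members with a mean of at least 1 CPM, with 1 symbol per clone. H2-K1 (0.54), Bst2 (0.53) and H2-D1 (0.50) are furthest up in clone 2, Eif2ak2 (-0.37) is furthest down there, and most members lie below 0 in clone 3.

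Differences of at least 2-fold were few. Among tested members, only Bst2 and Irf7 reached this size (7.41%, beside 7.93% of all tested genes), and both were highest in clone 2, as were 4.79% of all tested genes. When the exact test was used with no filter on low counts, an alternative added after seeing the data, 8 of 41 members (19.5%) differed by at least 2-fold, beside 8.22% of the 16294 genes with any count. All 8 (Bst2, Irf7, Oas1a, Oas2, Oasl2, Ifi44, Ifit3 and Rsad2) were highest in clone 2, as were 4.80% of those genes. Ifit3 was barely so, with 0.843 CPM against 0.805 CPM in clone 1. All but Bst2 and Irf7 entered only because the filter was dropped. The 16294 genes include those with 1 count in all, which cannot be called, so 19.5% and 8.22% are not matched for count. No enrichment is concluded from them. Without clone 2, the exact test left 1 of the 8 at 2-fold, Ifit3, with clone 1 above clone 3. Ifit3 in turn was not called by the chi-square test without clone 3 (adjusted p = 0.918).

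**Figure D4:**
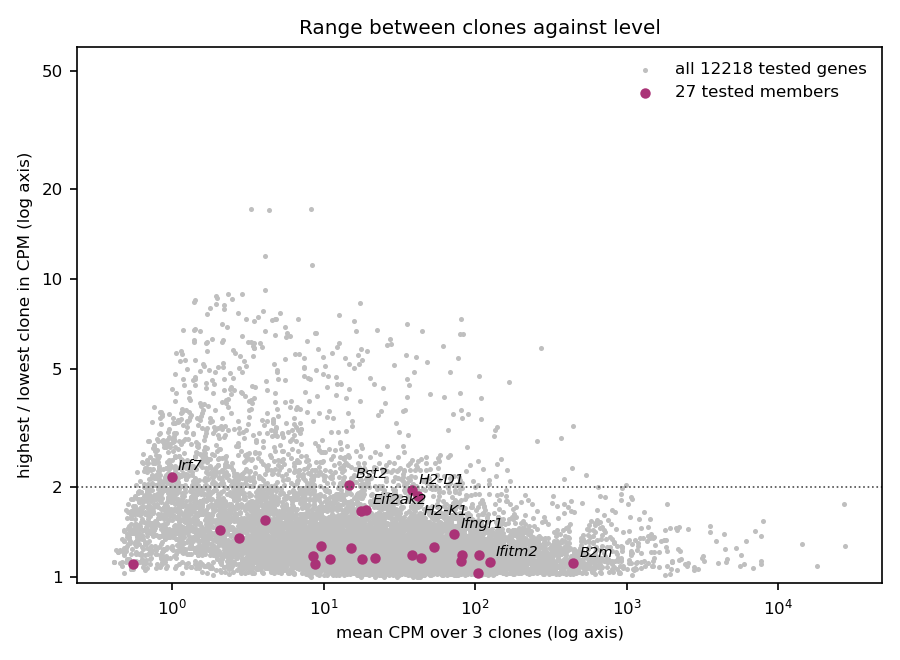
Ratio of the highest to the lowest clone in CPM against the mean CPM over the 3 clones, both on log axes, for all tested genes and for the members. The tested members have a median of 1.18-fold against 1.24-fold for all tested genes, and Irf7 (2.17) and Bst2 (2.04) are the tested members above 2.

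The deviation of a gene is its log2(CPM + 1) in a clone minus the average of all clones. The median deviation of the 25 members with a mean of at least 1 CPM was 0.064, 0.058 and -0.118 in clones 1, 2 and 3 on the log2(CPM + 1) scale. The set as a whole was therefore spread over 0.182 log2 units, and the class I genes over 0.33, with medians of 0.035, 0.098 and -0.232. Macrophage markers, by contrast, had medians of -0.711, 1.484 and -0.841, and all 15 that could be tested differed by at least 2-fold with clone 2 highest. Fibroblast markers had medians of 0.214, -0.093 and -0.07, and proliferation genes had medians of -0.603, 0.43 and 0.176. Ifnar2, Ifngr1, Irf3, Irf7, Bst2, Ifitm2, Ifitm3, H2-K1, H2-D1 and Tapbp differed by the chi-square test and were highest in clone 2. Irf3 and Ifitm2 were barely above clone 1 there. By the exact test, Oas1a, Oas2, Oasl2, Ifi44, Ifit3 and Rsad2 also differed with clone 2 highest. For Ifit3, clone 2 was barely above clone 1 (0.843 against 0.805 CPM). Clone 2 had the highest macrophage markers and proliferation genes, and the part of either in the result was not tested. Eif2ak2, Ifngr2 and Stat2 differed with clone 2 lowest, Stat2 by little (13.9 against 14.1 CPM in clone 3).

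**Figure D5:**
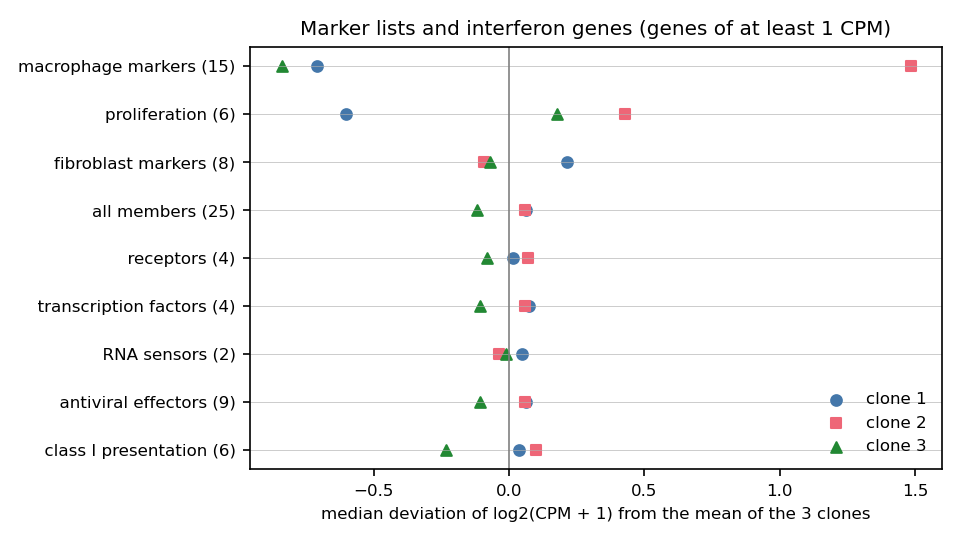
Median over genes of each clone's log2(CPM + 1) minus the average over clones, for the interferon and class I genes, their roles and the marker lists, with 1 symbol per clone. Macrophage markers span from -0.841 to 1.484, while the 41-gene set, over its 25 genes of at least 1 CPM, spans from -0.118 to 0.064.

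Other genes of the same pathways were looked up in fixed lists. Of 14 further genes of receptors and signalling, 13 were expressed (92.9%, beside 52.2% of all genes) and 10 of 13 tested differed by the chi-square test (76.9%, beside 62.5% of all tested genes). The kinase Jak1, at 196 ± 14.1 CPM, Stat3 at 135 ± 6.78 CPM and the shared receptor chain Il10rb at 41.2 ± 7.17 CPM had the highest means. Irf5, Irf8 and Ptpn6, a phosphatase of blood cells, differed by 2.17-fold, 3.86-fold and 4.15-fold, each with clone 2 highest. They are 3 of 13 tested, beside 7.93% of all tested genes at 2-fold and 4.79% at 2-fold with clone 2 highest. Of the 969 tested genes that differed by at least 2-fold, 585 were highest in clone 2. Irf8 had 26, 91 and 33 counts and Ptpn6 had 63, 215 and 58, with clone 2 highest as for the macrophage markers.

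Of 16 further genes of nucleic acid sensing, 12 were expressed and 8 of 14 tested differed (57.1%, below the 62.5% of all tested genes). Tmem173 (STING), which relays the sensing of cytosolic DNA, had 46.7, 63.3 and 52.5 CPM. The kinase Tbk1 had 32.4, 31.8 and 30.4 CPM, and the adaptor Mavs, on which DDX58 and IFIH1 act, had 25, 23.9 and 26.1 CPM. Tbk1 and Mavs did not pass the chi-square test (adjusted p = 0.497 and 0.384). At least 2-fold differences were found in 4 of 14 tested, beside 7.93% of all tested genes. All 4 were highest in clone 2, beside 4.79% of all tested genes. They were Tlr7 with 66, 261 and 64 counts, Mb21d1 (cGAS) with 78, 163 and 102, Dhx58 with 34, 54 and 25 and Aim2 with 18, 35 and 18.

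Of 28 further interferon-stimulated genes, 14 were expressed and 10 of 15 tested differed (66.7%, near the 62.5% of all tested genes). Ly6e had 203, 278 and 222 CPM, Samhd1, which depletes nucleotides for reverse transcription, had 57.5, 78.7 and 74.7 CPM, and Pml had 63.5, 69.7 and 65.6 CPM. Parp14 (42, 86 and 30 counts), Rtp4 (22, 27 and 10) and Dtx3l (46, 91 and 68) differed by 3.21-fold, 3.02-fold and 2.18-fold, again with clone 2 highest. They are 3 of 15 tested, beside 7.93% of all tested genes at 2-fold and 4.79% at 2-fold with clone 2 highest.

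Of 16 further class I genes, 12 were expressed and 11 of 14 tested differed (78.6%, beside 62.5% of all tested genes). The chaperones of the endoplasmic reticulum, which serve many proteins, led with Calr at 2510 ± 110 CPM, Pdia3 at 1980 ± 126 CPM and Canx at 1060 ± 85.4 CPM. The immunoproteasome subunit Psmb8 had 22, 36 and 20 counts, and Nlrc5, the transactivator of class I genes, had 21, 26 and 10. Both were highest in clone 2 and lowest in clone 3, with 2.02-fold and 2.91-fold ranges (chi-square test, adjusted p = 0.0255 and 0.0208). They are the 2 of 14 tested at 2-fold, beside 7.93% of all tested genes and 4.79% with clone 2 highest.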

How the data were processed

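RNA-seq was done on 3 WT MEF clones, 1 library each. Per the methods and the labels' processing notes, the authors aligned 86-nt single-end reads with TopHat2 2.0.0 (SAMtools 0.1.16, Bowtie 0.12.7), with 2 mismatches and 5 hits allowed, and counted reads per gene with HTSeq. The notes list mm9 and the methods mm10, and the deposited counts carry no coordinates. The HTSeq version, annotation and strand setting are not given in the sources used here, so reads of similar or overlapping genes may be shared or lost.

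The deposited values are raw counts per gene. CPM used TMM library sizes (edgeR 4.0.16, R 4.3.3). Differences between clones were tested with a chi-square test (2 degrees of freedom) on genes that reached 10 counts in each clone, with Benjamini-Hochberg adjusted p-values and a threshold of 0.05. The exact multinomial test replaced it for genes with at most 150 summed counts where no filter was used. Counting intervals cover counting error only, since reads carry no molecular identifiers. Lengths and positions came from GENCODE M21 (GRCm38), which matched 21123 genes by symbol and 588 by synonym, and promoters from RefSeq. The tests were tried on simulated counts. Python 3.11.15 and scipy 1.17.1 were used.

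The members and lists were chosen with earlier results of these data known. All members are named, and of each pathway list the 3 genes with the highest mean CPM and those differing by at least 2-fold, at most 5 by range. Alternatives were DESeq2 1.42.0 size factors, total counts, other filters and pseudocounts, transcript length and leaving out each clone.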

Additional observations from a re-analysis of the deposited data

How the results depend on the processing

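The count of expressed members was 25 under each scaling and without any 1 clone, 27 at 0.5 CPM, 22 at 5 CPM and 34 with over 3 counts in every clone. Under the alternatives, between 12 of 29 members tested (without clone 3) and 23 of 41 (exact test, no filter) differed between clones. In the report, 18 of 27 did (66.7%, beside 62.5% of all tested genes). The number tested changed with the setting, so these counts are not compared with each other. The 2 of 27 members that differed by at least 2-fold (7.41%, beside 7.93% of all tested genes) became 1 of 27 with total counts (Irf7). With at least 50 counts 1 of 24 did, and with a mean of 1 CPM 1 of 25 (Bst2 in both). With no filter 7 of 41 did, and 8 of 41 with the exact test and no filter (19.5%, beside 8.22% of the genes with any count). When a clone was left out, between 0 and 2 did (0 of 27 without clone 2 and 0 of 29 without clone 3). The exact test without clone 2 left 1 of 41. Shares per kb of annotated exon moved to 48.9% for H2-K1, 52.5% for Ifnar1, 47.4% for Ifngr1 and 41.6% for Tap1, since exon lengths within a pair differ. With transcript length, the means of H2-K1, Ifngr1 and Tap1 per kb lay above those of their partners. Of the single-gene results on differences, 264 kept their outcome, called or not, 28 lost a call and 3 gained one. Reversals of order could hardly arise, since the same counts were compared in the clones kept. The levels of all 41 members moved by less than 1 SD with DESeq2 size factors or total counts. Depth limits the members under 10 counts, whose ratios have wide counting intervals. With 1 library per clone, no spread within a clone was measured. No paired analysis was possible because there is 1 group.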

Other observations

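Class II presentation and the GTPases that interferon-gamma induces were also looked up. Of 8 class II genes, 2 were expressed, beside 52.2% of all genes. Ciita, the transactivator of class II genes, had 0, 0 and 1 counts in clones 1, 2 and 3, and H2-Aa had 0 in each. Ctss, a lysosomal protease of macrophages among other cells, had 17.1, 83.4 and 17.3 CPM, and H2-DMa had 4.95, 2.53 and 3.56 CPM. Ctss was highest in clone 2, as the macrophage markers were, and H2-DMa was lowest there. Cd74, with 16, 33 and 16 counts, differed by 2.31-fold with clone 2 highest. H2-DMb1, with 35, 28 and 16, differed by 2.22-fold with clone 1 highest. With Ctss, these are 3 of 4 tested at 2-fold, beside 7.93% of all tested genes.

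Of 9 GTPases, Irgm1 was the only one expressed in every clone. It had 2363, 838 and 1868 counts, or 95.1, 37.2 and 74.0 CPM, and its 2.56-fold range had clone 2 lowest (chi-square test, adjusted p = 1.17e-124). Of the low GTPases, Irgm2 had 24, 30 and 24 counts, Igtp had 35, 33 and 15 and Gbp7 had 21, 16 and 20. Igtp differed by 2.46-fold (chi-square test, adjusted p = 0.0113). It was lowest in clone 3, with clone 2 barely above clone 1 (1.46 against 1.41 CPM). Irgm1 and Igtp are 2 of 4 tested at 2-fold, beside 7.93% of all tested genes. Among the members that differed by the chi-square test, Eif2ak2, Ifngr2 and Stat2 also had clone 1 highest and clone 2 lowest, as Irgm1 did.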
